A study of Sus scrofa domesticus with 4 samples.

Results

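Endothelial and angiogenic genes were examined in anterior pituitary tissue from pregnant and cyclic gilts, mature young sows of a Large White x Polish Landrace cross. The rule named 9 genes, ENG, VWF, CDH5, PECAM1, VEGFA, ANGPT1, ANGPT2, TEK and CD34, and took every probe whose RefSeq accession belongs to one of them. It found 15 of the 43603 probes of the array, for 8 of the 9 genes, and 0 probes for TEK. The pregnant group held 4 gilts that had been mated naturally and carried conceptuses, collected on days 15 to 16 of early pregnancy. The cyclic group held 4 gilts collected on days 15 to 16 of the estrous cycle, dated by the look of their ovaries. On each of 4 two-colour Agilent arrays a pregnant gilt was paired with a cyclic gilt, so an array was 1 pair of animals, and there were 4 pairs. By the label fields pregnant RNA was in the green dye Cy3 on arrays 1 and 3 and in the red dye Cy5 on arrays 2 and 4, whereas the text of the labelling protocol gives 1 orientation only. The ratios that the authors deposited have the orientation of the label fields. For all 43553 probes spotted once they equal green over red for arrays 1 and 3, and red over green for arrays 2 and 4. That orientation was used here. The single orientation is given where it turns the estimate of 1 of the 8 genes or of a related list or gene named.

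The vessels of the anterior pituitary are fenestrated capillaries, fed through portal vessels that bring hypothalamic releasing hormones and take up pituitary hormones. VEGFA is the secreted growth factor that drives endothelial growth and keeps such capillaries fenestrated. ANGPT1 and ANGPT2 are ligands of the endothelial receptor kinase TEK, also called TIE2: ANGPT1, made largely by perivascular cells, activates it and steadies vessels, while ANGPT2, made by endothelial cells, mostly opposes this. ENG, endoglin, is an endothelial coreceptor for ligands of the TGF-beta and BMP family. CDH5 encodes VE-cadherin, the adhesion protein of endothelial junctions, PECAM1 an adhesion protein of the same cell borders that leukocytes and platelets also carry, CD34 a sialomucin of endothelial and haematopoietic progenitor cells, and VWF the clotting glycoprotein stored in endothelial cells and platelets.

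No endothelial or angiogenic gene differed between pregnant and cyclic gilts past the test. ENG had the lowest p, with a pregnant over cyclic ratio of -0.40 ± 0.17 on the log2 scale, a fold of 0.760, and lay below 0 on 4 of 4 arrays. VWF stood at -0.24 ± 0.11 and PECAM1 at -0.19 ± 0.11, while CDH5, at 0.51 ± 0.25, lay on the other side. VEGFA, ANGPT1, ANGPT2 and CD34 had estimates between -0.093 and 0.11. By limma with a dye term and Benjamini-Hochberg adjustment over all 25138 probes tested, 0 of 13 tested member probes passed an adjusted p of 0.05, the lowest being 0.605. That threshold was passed by 0 probes of the whole array (0%), where the lowest adjusted p was 0.125, and 2012 probes had an unadjusted p under 0.05. In a fit of the separate channels 4 probes passed, and 0 of the 8 member genes by their brightest probe.

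Each ± is the standard error that limma gave the estimate beside a gene-specific dye effect, and with 4 arrays it is imprecise. The dye term takes the part of the spread that goes with the dye out of that error, so the ratios of single arrays are given too. Their SD had a median of 0.230 over the tested member probes and of 0.267 over all tested probes. At a looser threshold, a fold of 1.2 or more together with an unadjusted p below 0.05, stood 7.84% of all tested probes, with 3.35% (841) higher and 4.50% (1131) lower in pregnant gilts. With median centring in place of loess these were 354 higher and 1314 lower. Of the member genes 0 of 8 stood there, in either direction. Estimates were below 0 for 5 of the 8 genes by their brightest probe, against 52.4% of all tested probes. The median estimate of the 8 genes was -0.079, and that of all tested probes -0.0096. A tissue piece was measured, so fewer endothelial cells and less RNA per endothelial cell cannot be told apart.

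**Figure D1:**
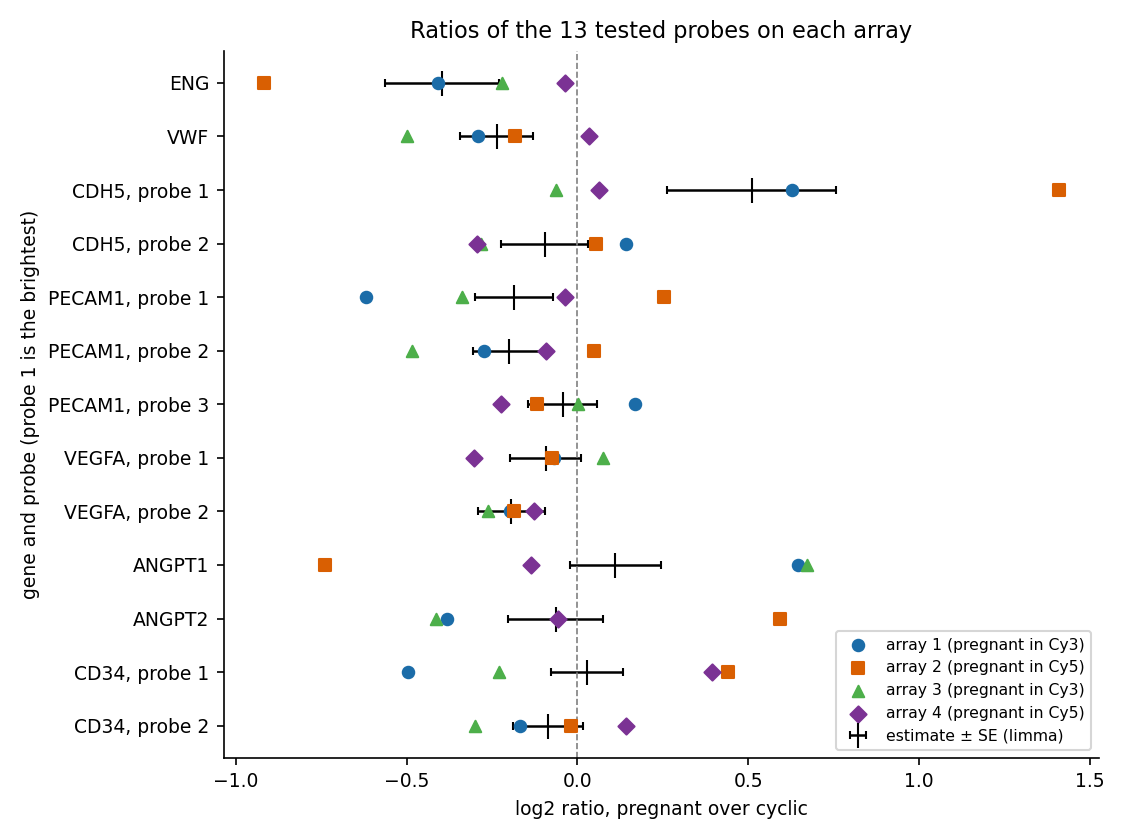
Log2 ratio of pregnant over cyclic (horizontal axis) of each tested probe (rows, brightest probe of a gene first), with 1 point per array and the limma estimate with its standard error in black. ENG and the second VEGFA probe lie left of 0 on all 4 arrays, and the first CDH5 probe spreads from -0.062 to 1.41.

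Of the 15 probes, 13 were tested, each being well above background in 4 or more of the 8 channels. The third CD34 probe and the second VWF probe were above background in 0 of 8 channels and have no ratio that can be read. Tested probes of ENG, PECAM1, ANGPT1 and ANGPT2, and the brightest probes of VWF, CDH5, VEGFA and CD34, were above background in all 8 channels. The other 3 were dimmer on the pregnant side: the second CDH5 probe was above background in 1 of 4 pregnant and 4 of 4 cyclic channels, the second VEGFA probe in 2 of 4 pregnant and 4 of 4 cyclic channels, and the second CD34 probe in 3 of 4 pregnant and 4 of 4 cyclic channels. Of all spots, 50.4%, 60.4%, 54.4% and 56.3% were above background in the pregnant channels of arrays 1 to 4, against 66.5%, 60.4%, 58.7% and 52.5% in the cyclic channels, so the pregnant share was lower on arrays 1 and 3 and higher on array 4. The part of this in the dim probes was not tested. No spot was saturated (0 on each array).

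Of the ligands, VEGFA was nearly level between the groups. On the log2 intensity scale its brightest probe measured 7.29, 7.33, 7.67 and 6.72 in the pregnant gilts of arrays 1 to 4, against 7.36, 7.40, 7.59 and 7.02 in the cyclic gilts of the same arrays. The gilts of array 4 were the lowest of their groups and those of array 3 the highest, so the arrays differed more than the groups, and the groups overlapped. The ratio was -0.093 ± 0.10 (unadjusted p = 0.411 and adjusted p = 0.793 by limma), with a 95% confidence interval of 0.781 to 1.12 for the fold.

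The second VEGFA probe was the least variable member probe. Its ratios were -0.20, -0.18, -0.26 and -0.13 on arrays 1 to 4, with an SD of 0.055, and the estimate was -0.19 ± 0.098 (limma adjusted p = 0.611). Levels were 6.80, 6.63, 6.65 and 6.73 in pregnant gilts and 6.996, 6.82, 6.91 and 6.86 in cyclic gilts. It was the 1 tested member probe, of 13, in which the 4 pregnant and 4 cyclic levels did not overlap, which 2.10% of all tested probes also showed, but it met the filter through its cyclic channels more than its pregnant ones. Its raw median signal was 71.0 to 91.5 in pregnant and 99.0 to 161 in cyclic channels, over a local background whose array median was 31.5 to 40.0, so it lay close to the floor, where the added offset draws ratios towards 0.

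ANGPT1 and ANGPT2 had ratios of opposite sign on 3 of the 4 arrays, and those of ANGPT1 went with the dye on all 4. ANGPT1 measured 10.51, 9.75, 10.97 and 10.70 in pregnant gilts and 9.86, 10.49, 10.30 and 10.83 in cyclic gilts of arrays 1 to 4. Its ratios were 0.65, -0.74, 0.67 and -0.14. Pregnant gilts were higher on arrays 1 and 3, in which they carried the green dye, and lower on arrays 2 and 4, so green exceeded red on all 4 arrays. The dye effect of ANGPT1, red over green, was -0.55, its size above that of 97.6% of all tested probes, and the pregnancy estimate beside it was 0.11 ± 0.13 (limma adjusted p = 0.808).

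ANGPT2 measured 7.07, 7.40, 6.99 and 6.69 in pregnant gilts and 7.45, 6.81, 7.41 and 6.75 in cyclic gilts. Its ratios were -0.38, 0.59, -0.41 and -0.056, with an estimate of -0.064 ± 0.14 (limma adjusted p = 0.901) and a 95% confidence interval of 0.753 to 1.22 for the fold. The groups of both ligands overlapped. The ANGPT2 ratio minus the ANGPT1 ratio was -1.03, 1.33, -1.08 and 0.081 on arrays 1 to 4, so no common direction appeared over the 4 pairs of animals (mean -0.17, SD 1.14, n = 4). The sign of this difference went with the dye on all 4 arrays, so its SD holds dye effects besides the spread between pairs. The dye effect of ANGPT2 was 0.33, in size above that of 88.9% of all tested probes. Without array 4 both estimates changed sign, to -0.040 for ANGPT1 and 0.099 for ANGPT2.

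**Figure D2:**
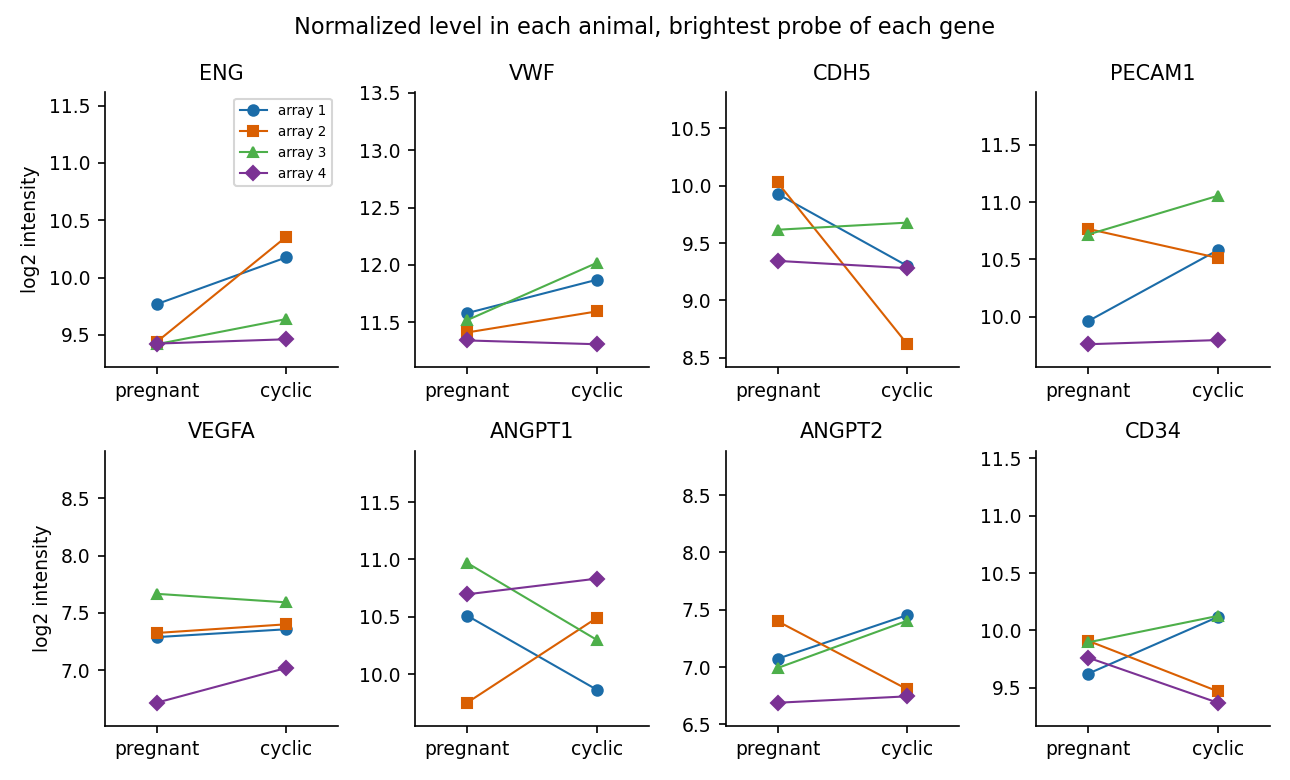
Normalized log2 intensity (vertical axis, each panel spanning the same range from its own lowest value) of the brightest probe of each gene in the pregnant and the cyclic gilt of each array, joined by a line per array. The lines of ENG all run upward to the cyclic gilt, while those of ANGPT1, ANGPT2 and CD34 run both ways.

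ENG was the only gene of the 8 whose brightest probe had 1 sign on all 4 arrays, which 14.6% of all tested probes had, and 7.75% had all 4 below 0. It measured 9.77, 9.44, 9.42 and 9.42 in pregnant gilts, and 10.18, 10.36, 9.64 and 9.46 in cyclic gilts of arrays 1 to 4. The cyclic gilts of arrays 1 and 2 were the highest, the pregnant gilts lay close together (SD 0.17, against 0.43 in cyclic gilts, n = 4 each), and the groups overlapped through the cyclic gilts of arrays 3 and 4. Ratios were -0.41, -0.92, -0.22 and -0.038, and the dye effect was small at -0.082. Limma gave an unadjusted p of 0.0592 and an adjusted p of 0.605, with a 95% confidence interval of 0.569 to 1.02 for the fold. Array 2 carried much of the estimate, which was -0.18 without it, against -0.62 without array 4. Had the dyes run in 1 orientation, as the protocol text has it, the estimate would be 0.082. ENG had 1 probe, so no second probe bears on it.

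The junction gene CDH5 gave the highest estimate of the 8 and the second least even ratios. Its brightest probe measured 9.93, 10.03, 9.62 and 9.34 in pregnant gilts and 9.30, 8.62, 9.68 and 9.28 in cyclic gilts. The cyclic gilt of array 2 was the lowest of the 8 animals and its pregnant partner the highest. Ratios were 0.63, 1.41, -0.062 and 0.064, so arrays 1 and 2 averaged 1.02 and arrays 3 and 4 averaged 0.00091. The estimate of 0.51 ± 0.25 had an unadjusted p of 0.0900 (limma adjusted p = 0.611) and a fold interval of 0.926 to 2.19. It was 0.17 without array 2, 0.85 without array 4 and -0.23 with a single dye orientation. The second, dimmer CDH5 probe stood at -0.095 ± 0.13, with ratios of 0.14, 0.055, -0.28 and -0.29, so the estimates of the CDH5 probes lay on opposite sides of 0. Array by array the probes shared a sign on 3 of 4, differing on array 4, and the second was above background in 1 of 4 pregnant channels.

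ENG and CDH5 had their largest ratios on array 2 and in opposite directions, ENG at -0.92 and CDH5 at 1.41. Among the brightest probes, these were the 2 genes farthest apart over the 4 arrays, with a Euclidean distance of 2.56 between their ratios. PECAM1 and ANGPT2 were the closest, at 0.423. The endothelial markers had no common sign on that array.

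PECAM1 was read by 3 probes. Its brightest measured 9.96, 10.77, 10.72 and 9.76 in pregnant gilts and 10.58, 10.51, 11.05 and 9.80 in cyclic gilts, and ratios were -0.62, 0.25, -0.34 and -0.036. Both gilts of array 4 were low, and the groups overlapped. The estimates of the 3 probes were -0.19 ± 0.11, -0.20 ± 0.10 and -0.043 ± 0.10, all below 0, with limma adjusted p of 0.642, 0.614 and 0.911. The first and second probes had the same sign on 4 of 4 arrays, while the third shared the sign of either on 1 of 4. Its ratios were 0.17, -0.12, 0.00065 and -0.22, with green over red on all 4 arrays.

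CD34 had ratios that went with the dye. Its brightest probe measured 9.62, 9.91, 9.90 and 9.76 in pregnant gilts and 10.12, 9.47, 10.13 and 9.37 in cyclic gilts. Ratios were -0.50, 0.44, -0.23 and 0.39, so red exceeded green on all 4 arrays, with a dye effect of 0.39, in size above that of 92.8% of all tested probes. The pregnancy estimate was 0.027 ± 0.10 (limma adjusted p = 0.949), with a fold interval of 0.849 to 1.22. The second CD34 probe stood at -0.086 ± 0.10, with ratios of -0.17, -0.020, -0.30 and 0.14.

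VWF was the secreted marker of the set. Its brightest probe measured 11.58, 11.41, 11.52 and 11.34 in pregnant gilts and 11.87, 11.59, 12.02 and 11.31 in cyclic gilts. Ratios were -0.29, -0.18, -0.50 and 0.033, so pregnant gilts were lower on arrays 1 to 3 and level on array 4, and the groups overlapped. The estimate of -0.24 ± 0.11 had an unadjusted p of 0.0740 (limma adjusted p = 0.605) and a fold interval of 0.706 to 1.02. It was the estimate least changed by the processing, between -0.29 and -0.16 over 16 alternatives. With a single dye orientation it was -0.16, the value nearest 0.

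The dye effect was also read for each gene. By limma, ANGPT1, CD34 and PECAM1 had an unadjusted p under 0.05 for it, against 10.3% of all tested probes, and 0 passed after adjustment, of the members or of the whole array (0%). All 4 arrays had red over green, or all 4 green over red, for 3 of the 13 tested probes, against 20.0% of all tested probes. Array by array, the median ratio of the 8 genes was -0.34, 0.089, -0.23 and -0.037, where that of all tested probes lay between -0.019 and 0.011. Arrays 1 and 3, with pregnant RNA in green, had 6 of 8 genes below 0 each, and arrays 2 and 4 had 4 and 5.

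**Figure D3:**
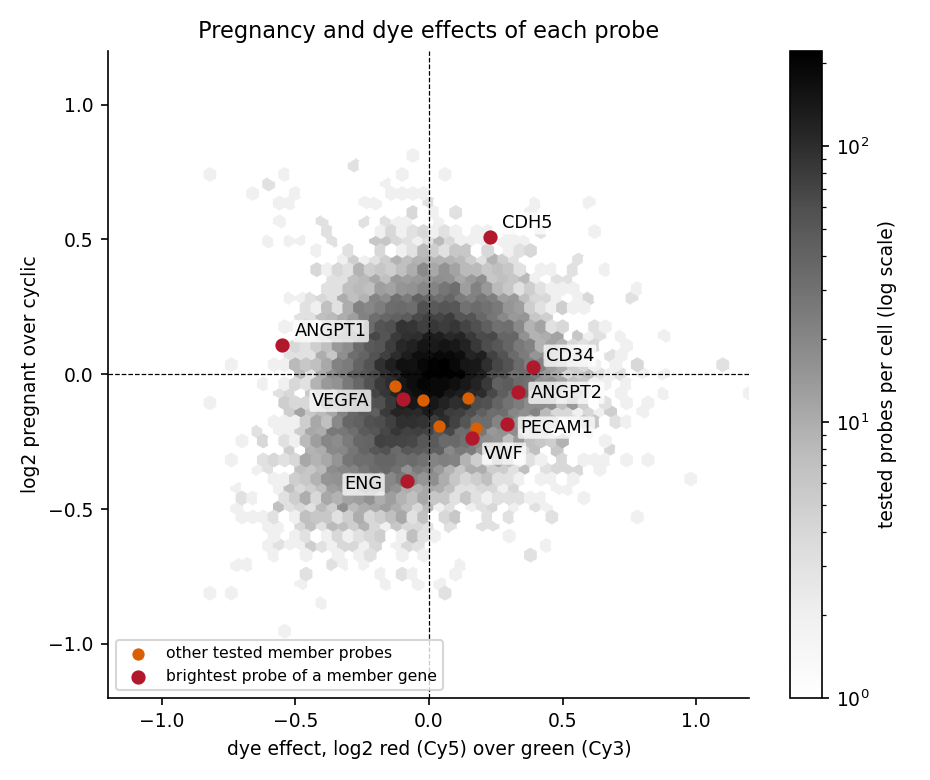
Pregnancy effect (vertical axis, log2 pregnant over cyclic) against dye effect (horizontal axis, log2 red over green) of the tested member probes, over the density of all tested probes in grey, whose axes end at 1.2 so that probes beyond are not drawn. ANGPT1 at -0.55 and CD34 at 0.39 lie far out along the dye axis and near 0 on the other, while ENG and CDH5 lie at -0.40 and 0.51 on the pregnancy axis.

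With a single dye orientation and no dye term, 3 other genes led: ANGPT1 at 0.55, CD34 at -0.39 and ANGPT2 at -0.33 (limma unadjusted p = 0.00580, 0.00707 and 0.0442). None passed adjustment there (limma adjusted p between 0.524 and 0.545), and 2109 of the 25138 tested probes stood at the looser threshold. In that reading the pregnancy effect is the dye effect with its sign turned and the group cannot be told apart from the dye.

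By the distance of the 4 array ratios, the named genes most like the members, of 2406 genes tested, were FLOT1 at 0.110 and CKM at 0.132 for ENG, and PHF6 at 0.146 and LAG3 at 0.162 for VWF. SELP, the P-selectin of endothelial cells and platelets, was among the nearest to PECAM1, at 0.191. CHI3L1 at 0.0695 and HSPE1 at 0.234 were nearest to ANGPT2, GPR1 at 0.125 and ING3 at 0.192 to CD34, and ZNRD1 at 0.104 and CHRM3 at 0.119 to VEGFA. POU2F1 at 0.249 and ITM2A at 0.262 were nearest to ANGPT1. The nearest to CDH5 lay farther off, MGAT4C at 0.440 and CALB1 at 0.463. These are distances over 4 arrays only and describe the profile of these ratios.

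Of the other genes of these pathways, few were named on the array. None of the 9 listed VEGF ligands and receptors besides VEGFA had a named probe (0 of 9), so the receptors of VEGFA are not analysed here. Of the 6 genes listed with the angiopoietin and TIE system, TIE1, ANGPT4 and PTPRB had no named probe. Only the angiopoietin-like ANGPTL4, a secreted lipase inhibitor, was tested, at -0.26 ± 0.21, and it is no readout of TEK or its ligands. Over 8 lists of vascular genes, 40 of 110 genes were tested, 23 below and 17 above 0, with a median of -0.022. At the looser threshold were 2 of them, 5% of those tested against 7.84% of all probes, and 0 passed the adjusted one.

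Among 12 tested genes of the endoglin receptor complex and its signalling, 7 were below and 5 above 0, with a median of -0.0087, and its named genes beside TGFBR3 were picked for their role after their values were seen. TGFBR3, betaglycan, the coreceptor related to ENG, was the 1 gene of this list at the looser threshold, with ratios of -0.63, -0.14, -0.75 and -0.24 and an estimate of -0.44 ± 0.099 (limma unadjusted p = 0.00554 and adjusted p = 0.605). ID1, a target of BMP signalling, stood at 0.14 ± 0.13. TGFB1 and TGFB3, ligands of this system, stood at 0.31 ± 0.15 and 0.31 ± 0.18. The genes for ACVRL1 and TGFBR2, receptors that work with endoglin, had no named probe.

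Of 12 further endothelial markers 8 were below and 4 above 0, with a median of -0.093 and 0 at the looser threshold. NOS3, endothelial nitric oxide synthase, had the lowest p at -0.20 ± 0.11 (limma unadjusted p = 0.127). The list's median was -0.32, 0.30, -0.26 and 0.019 on arrays 1 to 4, and its dye effect was above 0 in 12 of 12 genes, against 12743 of the 25138 tested probes. Array 1 below 0, array 2 above and array 3 below was also the order seen for PECAM1, ANGPT2 and CD34.

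NOTCH4, a Notch receptor of endothelium, lay below 0 on 4 of 4 arrays at -0.26 ± 0.099 (limma unadjusted p = 0.0428), just short of a fold of 1.2, and its ligand DLL4 stood at 0.024 ± 0.099. Of the angiogenesis inhibitors 2 of 4 were below 0, with a median of 0.034. The 1 at the looser threshold was SPARC, a matrix protein that binds growth factors, at -0.50 ± 0.12 (limma unadjusted p = 0.00612 and adjusted p = 0.605), with ratios of -0.96, -0.12, -0.59 and -0.35. Of 4 other angiogenic factors and receptors 3 were above 0, with a median of 0.19. PLAU, the urokinase plasminogen activator, had the lowest p at 0.27 ± 0.17, with ratios of -0.087, 1.24, -0.63 and 0.54 and a dye effect of 0.63. Of 5 hypoxia-responsive genes 3 were below 0. ADM, the vasodilator adrenomedullin, was lowest in p at -0.19 ± 0.18. Its ratios were -1.70, 1.15, -0.85 and 0.66, so red exceeded green on all 4 arrays, with a dye effect of 1.09. HIF1A, the oxygen-regulated factor that induces VEGFA, stood at -0.041 ± 0.13. The median of the hypoxia-responsive genes was -0.041, beside -0.093 for VEGFA.

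**Figure D4:**
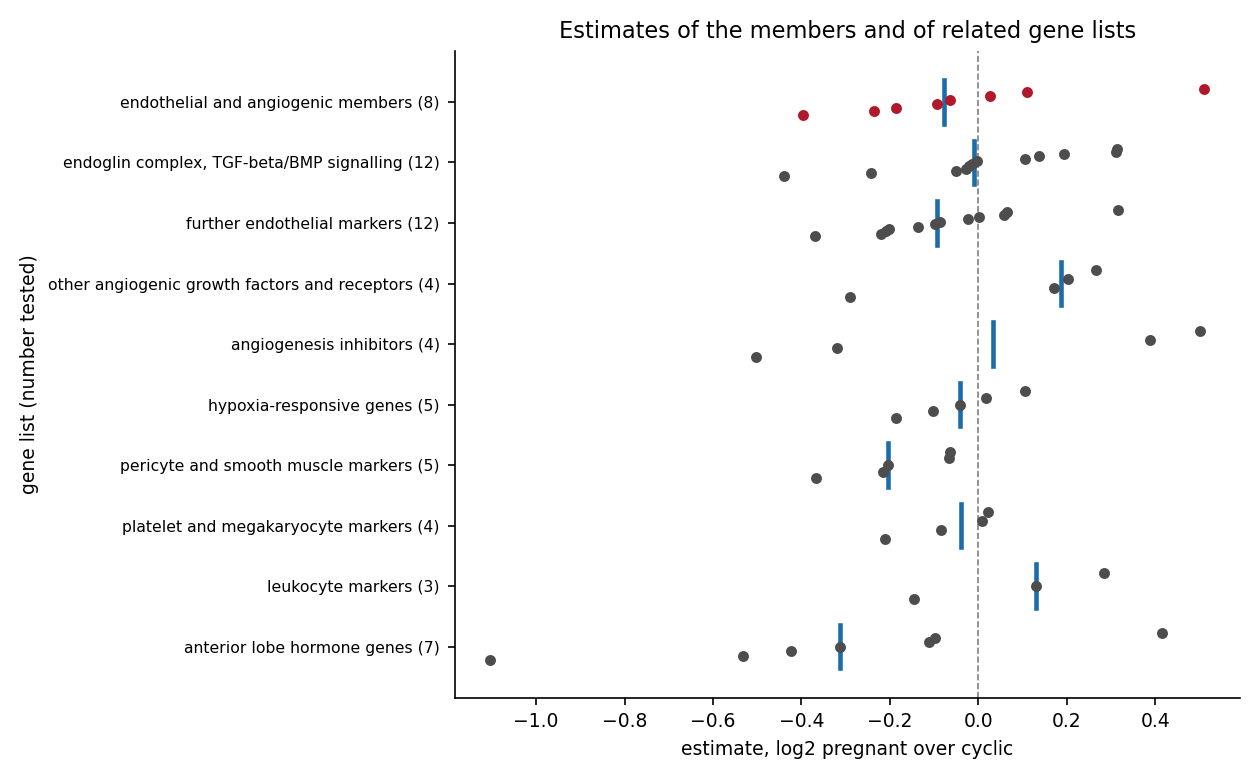
Limma estimates (horizontal axis, log2 pregnant over cyclic) of the 8 member genes in red and of the tested genes of related lists in grey, for lists with 3 or more tested genes, with each list's median as a blue bar. The medians drawn lie between -0.31 for the hormone genes and 0.19 for the other angiogenic factors, and the members spread from -0.40 to 0.51.

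Markers of other cells that carry these genes or lie beside them were set next to the members. All 5 tested pericyte and smooth muscle markers were below 0, with a median of -0.21 and 0 at the looser threshold. Leaving out array 2 gave a median of -0.36, leaving out array 1 gave -0.094 and leaving out array 4 gave -0.068. DES, desmin, had the lowest p at -0.37 ± 0.18, with ratios of -0.38, 0.30, -1.24 and -0.14 and a dye effect of 0.45. Summed over those 5 probes the linear level was 11310 to 20110 in pregnant gilts and 14310 to 19310 in cyclic gilts. The list's array medians of -0.35, 0.30, -0.23 and -0.12 had the signs of PECAM1 on each array. The anterior lobe hormone genes had the same signs, with array medians of -0.55, 0.63, -0.84 and -0.12, so this order was not particular to vessel cells. The median dye effect, red over green, was 0.39 for the pericyte and smooth muscle markers and 0.59 for the hormone genes. The part of the dye in this order was not tested. The part of mural cells in the member ratios was not tested. Platelet markers had 2 of 4 genes below 0, with a median of -0.038 and ITGA2B, a platelet integrin, lowest in p at -0.21 ± 0.14. Leukocyte markers had 2 of 3 above 0, led by ITGB2, an integrin of white cells, at 0.28 ± 0.13, and PROX1, the lymphatic factor, stood at 0.27 ± 0.15. No red cell gene of the list had a named probe (0 of 4).

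The tissue label was checked against its hormones. All 7 anterior lobe hormone genes were well above background in all 8 channels. Of them 6 were below 0, with a median of -0.31 that became 0.18 with normexp parameters from all spots. By brightest probes LHB, the beta subunit of luteinizing hormone, was the 1 at the looser threshold, with ratios of -0.78, -0.60, -0.19 and -0.12 and an estimate of -0.42 ± 0.15 (limma unadjusted p = 0.0338 and adjusted p = 0.605). POMC, another gene of this list, stood at -0.11 ± 0.12 by its brightest probe, but its other 2 probes stood at -0.73 ± 0.11 and -0.57 ± 0.10. Those 2 probes were at the looser threshold (limma unadjusted p = 0.00086 and 0.0018, adjusted p = 0.577 and 0.605). OXT, oxytocin, a posterior lobe hormone, was also above background in all 8, at -0.36 ± 0.16, while the probe of AVP, vasopressin, was too dim to be tested. PCSK2, a prohormone convertase listed with the other lobes, stood at 0.40 ± 0.48, with ratios of 1.43, -0.55, -0.82 and 1.56. The part of hormone cells or of other lobes in the member ratios was not tested.

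With a single dye orientation the median of the other angiogenic factors would be -0.11, that of the inhibitors -0.45 and that of the platelet markers 0.022, each on the other side of 0. Of the genes named from the lists, TGFB1, DLL4, PLAU, ITGA2B, PROX1, OXT and PCSK2 would also change sign in that reading. The other 2 POMC probes would change sign too.

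**Figure D5:**
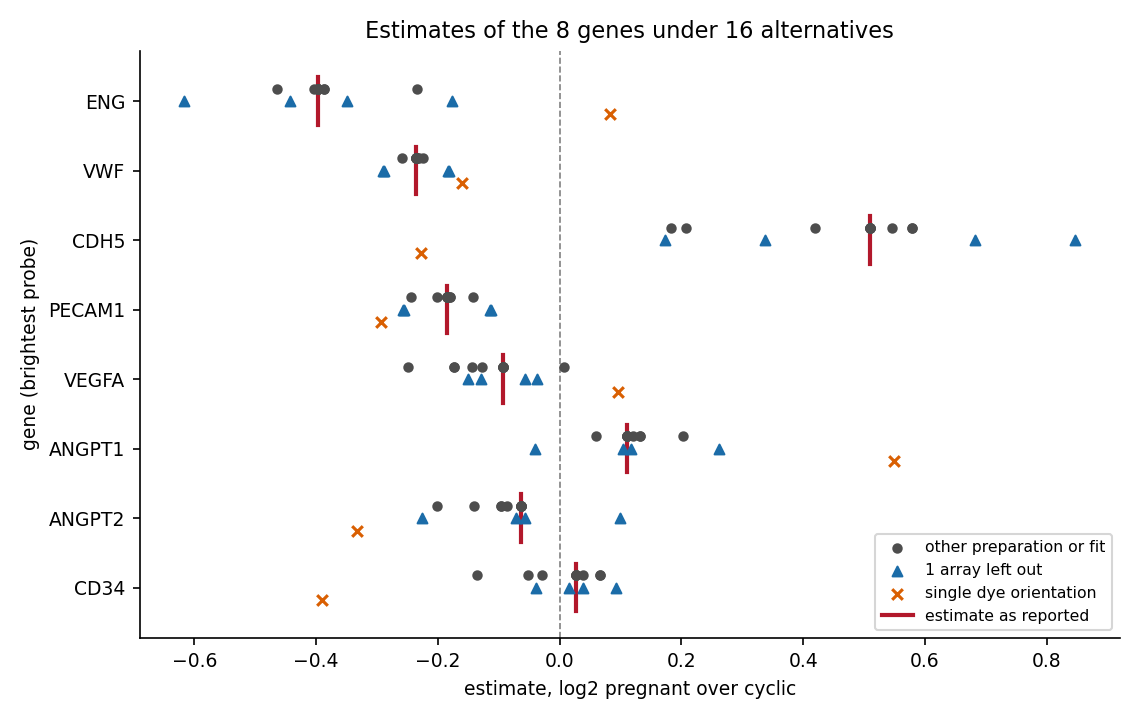
Estimates (horizontal axis, log2 pregnant over cyclic) of the brightest probe of each gene as reported (red bar) and under 16 alternatives: other preparations or fits (grey), 1 array left out (blue) and a single dye orientation (orange). VWF and PECAM1 stay left of 0 under all 16, ENG and CDH5 change side under the single dye orientation alone, and CD34 lies on both sides. Some of the other fits leave every estimate as reported by construction.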

How the data were processed

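The deposited scanner files hold, per the file headers, median intensity values for spots and for the background around them in both colours, and processed intensities and a log10 ratio that Agilent Feature Extraction 10.7.3.1 had background-subtracted and dye-normalized. The authors' deposited value table holds log2 ratios, and for all 43553 probes spotted once these matched ratios of the processed intensities within 0.001. The match was to green over red for arrays 1 and 3, and to red over green for arrays 2 and 4. By the label fields this is pregnant over cyclic for all 4 arrays. The 4 arrays lay on 1 slide with 1 scan time, so no batch could be fitted. Saturation and outlier marks are the scanner's.

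The work was done in R 4.3.3 with limma 3.58.1. For the background, normexp was used (offset 50), its parameters estimated without the 377 to 3480 spots per channel marked as outliers. Ratios were normalized by loess (span 0.3, 1417 control spots at weight 0), spots of a probe were averaged, and ratios were turned to pregnant over cyclic. Levels per animal are log2 intensities after Aquantile scaling. Probes complete on 4 arrays and well above background in at least 4 of 8 channels were tested (25138) with lmFit and eBayes beside a dye effect. The brightest tested probe stood for a gene in counts. RefSeq names are those of Sscrofa11.1, and 6700 probes carried 1 symbol and 0 carried several; the rest are unnamed here. Related lists named genes of an unadjusted p under 0.05 and the lowest p of each list; a few more were named for their known role after their values were seen. Some genes are not reported here. The fit was tested on simulated data. The changes planted there were larger than any member estimate, so finding changes of member size was not tested. The members and lists were chosen with earlier results of these data known.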

Additional observations from a re-analysis of the deposited data

How the results depend on the processing

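No result of the 8 genes passed the adjusted threshold under any of 16 alternatives by limma (0 genes in each), and their smallest adjusted p was 0.310. Of 128 estimates, 11 changed sign. The alternatives without a dye term, with separate channels, with another filter or with 1 probe per gene left the 8 estimates as reported. They changed the error, the probes tested or the adjustment only, so no sign could turn in them. The mean of a gene's probes could not move ENG, VWF, ANGPT1 or ANGPT2, each with 1 tested probe. With a single dye orientation ENG stood at 0.082, CDH5 at -0.23, VEGFA at 0.096 and CD34 at -0.39. With normexp parameters from all spots VEGFA stood at 0.0072, CD34 at -0.14, ENG at -0.23 and CDH5 at 0.18 (0.21 as the mean of its probes), and CD34 was at -0.051 with median centring and at -0.029 as the mean of its probes. With 1 array left out in turn CD34 ran from -0.039 to 0.093, ANGPT1 from -0.040 to 0.26, ANGPT2 from -0.23 to 0.099, VEGFA from -0.15 to -0.036 and PECAM1 from -0.26 to -0.11. The cause of these changes was not tested. Genes at the looser threshold, 0 as reported, numbered 1 without a dye term (ENG), 2 in the separate-channel fit (ENG and CDH5) and 3 with a single orientation, and 0 to 2 with 1 array left out, both being ENG and CDH5 without array 4. Over the whole array, of 25138 probes tested, the looser count was 1972 as reported and 761 with normexp parameters from all spots. It was 1567 without a dye term, 2638 with separate channels and 2109 with a single orientation. With 1 array left out it ran from 918 to 3235, the highest being without array 4. The adjusted count was 0 as reported, 2 with an offset of 16, 4 with separate channels and 0 to 7 with 1 array left out. Genes below 0 numbered 5 or 6 throughout. Of 144 medians of related lists 17 changed sign, in 6 of 9 lists. Medians without a dye term, with separate channels, without the filter on dim probes or with 1 probe per gene were as reported. Over the 16 alternatives the endoglin list ran from -0.050 to 0.099, other angiogenic factors from -0.11 to 0.34, inhibitors from -0.45 to 0.14, the hypoxia list from -0.19 to 0.020, platelet markers from -0.17 to 0.025 and hormones from -0.59 to 0.18. Further endothelial markers (-0.25 to -0.046), pericyte markers (-0.39 to -0.068) and leukocyte markers (0.032 to 0.21) kept their side. The value table and the processed signals gave the same estimates to 3 digits and are not independent. Leaving out 1 array kept the dye term, so the array left alone in its dye orientation counted as much as the other two together. Signal limits the dim probes: the second VEGFA, CDH5 and CD34 probes lay near background in pregnant channels. The fits of array ratios are paired by construction, with 1 pair of animals to an array. No gene's 4 ratios held an outlying array by Dixon's test (0 of 13 probes).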
